A study of Homo sapiens with 6 samples.

Results

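Proteasome genes were described as the 47 of 14987 listed genes whose symbol is PSM, a letter from A to G and a number, with or without the ending IP. They were sorted by what their products do in the particle: 7 subunits of the alpha ring and 7 of the beta ring of the core, 3 inducible beta subunits, 6 ATPases, 3 other subunits of the base, 8 subunits of the lid, 4 chaperones of the core, 3 chaperones of the regulatory particle, 5 activators or inhibitors, and PSMC3IP. PSMC3IP is named after an ATPase but is a cofactor of meiotic recombination and not a subunit. PSMA8 and PSMB11, the subunits of testis and thymus, were not analysed here.

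The cells were HCT116, a human line established from a colorectal carcinoma, and their mRNA was sequenced after 6 h without glucose or in control medium. YAP knockdown cells carried the construct shYAP1 or shYAP3, each with 1 library per medium, and cells labelled wild type, called NC, also gave 1 library per medium, 6 libraries in all. The study asked what part YAP, a transcriptional coactivator held back by the Hippo kinases, has in the expression response to glucose deprivation. Replicate cultures are not stated, so p-values measure only the spread between these libraries, and NC cells were assumed to vary as the shYAP cells did.

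The listed reads of a library numbered 16912634 to 22161075. The deposited values are read counts multiplied by 1 constant per library, with no correction for transcript length. YAP1 stood at 20.3 in shYAP1, 18.2 in shYAP3 and 154 in NC cells after deprivation, against 35.7 in shYAP1, 38.2 in shYAP3 and 188 in NC cells in control medium. All 7 colorectal epithelial markers sought were listed, with summed values of 3289 to 6311. Of these KRT8 was highest, at 1642 to 3250, while CDX2 stood at 5.75 to 14.2 and VIL1 at 1.12 to 3.72. Of the markers of fibroblasts, leukocytes and endothelium, those analysed here were COL1A1, CD14 and VWF, with values of 2.98 to 10.1, 0 to 0.0880 and 0.208 to 0.974. The shYAP3 deprived library stood apart: on the log2 scale, its values deviated from the gene mean by a median of 0.46 in the 10% of genes with the shortest transcripts, and by −0.32 in the 10% with the longest.

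The proteasome degrades proteins tagged with ubiquitin. Its core particle is a barrel of stacked alpha and beta rings with the protease sites of PSMB5, PSMB6 and PSMB7 inside. The regulatory particle caps the barrel: its lid and base bind the tagged protein and remove the ubiquitin, and a ring of ATPases unfolds the protein and feeds it into the core. When proteasomes fall short, the transcription factor NFE2L1 is released from the endoplasmic reticulum, cut by the protease DDI2 and deglycosylated by NGLY1, and it raises proteasome genes through antioxidant response elements.

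RefSeq promoters (GRCh38.p14, 250 bases before to 50 after the start) were matched for 41 of the 47 genes. They are of another build than hg19, which the submitters' processing notes name. These 4 are shown because they belong to genes that rose after deprivation and differ in the motifs found. Capitals mark a match to TGACNNNGC, a core of the antioxidant response element, or to CCAAT, on either strand. They lie at chr17:38752491-38752790 on the plus strand (PSMB3), chr18:12658488-12658787 on the plus strand (PSMG2), chr19:38374321-38374620 on the plus strand (PSMD8) and chr14:35292067-35292366 on the plus strand (PSMA6).
PSMB3: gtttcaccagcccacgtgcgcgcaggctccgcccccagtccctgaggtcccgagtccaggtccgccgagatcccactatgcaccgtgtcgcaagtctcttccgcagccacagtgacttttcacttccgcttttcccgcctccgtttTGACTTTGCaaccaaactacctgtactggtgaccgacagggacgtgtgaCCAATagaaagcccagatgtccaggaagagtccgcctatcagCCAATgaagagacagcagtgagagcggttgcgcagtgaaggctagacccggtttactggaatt
PSMG2: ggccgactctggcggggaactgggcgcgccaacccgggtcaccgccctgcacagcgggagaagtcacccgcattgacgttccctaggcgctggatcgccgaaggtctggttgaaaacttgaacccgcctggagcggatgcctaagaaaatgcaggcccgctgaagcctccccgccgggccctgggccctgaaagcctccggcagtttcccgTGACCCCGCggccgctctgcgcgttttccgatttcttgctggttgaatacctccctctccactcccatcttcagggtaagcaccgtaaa
PSMD8: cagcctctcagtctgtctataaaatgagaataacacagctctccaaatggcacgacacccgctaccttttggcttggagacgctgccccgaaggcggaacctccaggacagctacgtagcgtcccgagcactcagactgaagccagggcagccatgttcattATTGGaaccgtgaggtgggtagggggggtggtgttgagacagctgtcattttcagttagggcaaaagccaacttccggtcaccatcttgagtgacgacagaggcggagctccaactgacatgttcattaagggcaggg
PSMA6: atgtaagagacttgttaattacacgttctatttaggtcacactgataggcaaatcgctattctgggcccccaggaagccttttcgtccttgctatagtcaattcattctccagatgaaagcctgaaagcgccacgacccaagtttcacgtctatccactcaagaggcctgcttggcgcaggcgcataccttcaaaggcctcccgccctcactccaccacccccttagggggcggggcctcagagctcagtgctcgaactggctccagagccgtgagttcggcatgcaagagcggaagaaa

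PSMB3 holds both motifs, PSMG2 the TGACNNNGC motif, PSMD8 a CCAAT box on the opposite strand and PSMA6 neither. TGACNNNGC was in 13 of the 41 proteasome promoters (31.7%), against 13.6% of all 27305 promoters of this length. CCAAT was in 19 (46.3%), against 35.7%. TGATGNAA, a core of the element bound by ATF4 with C/EBP factors, was in 1, that of PSMF1 (2.44%), against 3.67%. Among the 10 matched promoters of genes that rose after deprivation, 2 held TGACNNNGC and 5 held CCAAT. A match is a description of the letters and not of a bound site.

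After deprivation 12 of the 46 proteasome genes that could be tested rose, by folds of 1.44 to 1.70, and none fell. PSMB8 did not reach a value of 1 in 2 libraries and was not tested. The 12 were PSMA1, PSMA2 and PSMA6 of the alpha ring, PSMB1, PSMB3 and PSMB4 of the beta ring, PSMC1 and PSMC2 of the ATPase ring, PSMD4 of the base, PSMD8 and PSMD14 of the lid, and the core chaperone PSMG2. Their share, 26.1%, is set against 16.5% of all 12263 genes tested that were higher, and the share of lower calls over all genes was 15.6% (limma on log2(value + 1), Benjamini-Hochberg adjusted p below 0.05). The median log2 fold change was 0.35 over the 46 genes and 0.05 over all genes tested. In bulk RNA, a change in the cells present and a change in RNA per cell cannot be told apart. In 22 of the 46 all 3 deprived libraries lay above all 3 control libraries, against 26.8% of all genes, and in 4 (PSMB2, PSMD2, PSME3 and PSMG3) they lay below, against 23.8%.

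The log2 ratio of each line rests on 1 library per medium and is given as a description. The median log2 ratio of deprived to control was 0.23 in shYAP1, 0.82 in shYAP3 and 0.13 in NC cells, whereas over all genes tested it was 0.03, 0.04 and 0.02 in those lines. Of the 46 genes 36 were higher after deprivation in shYAP1, 39 in shYAP3 and 34 in NC cells, against 52.8%, 52.6% and 52.2% of all genes. A log2 ratio of at least 0.5 was reached by 3 in shYAP1, 32 in shYAP3 and 0 in NC cells, against 13.1%, 26.9% and 12.9% of all genes. The shYAP3 deprived library held the highest of the 6 values for 37 of the 46 genes and the lowest for 6, against 34.9% and 33.3% of all genes. Without this library the median over the 46 genes was 0.21, and 16 rose, the 12 above with PSMA3, PSMB7, PSMC4 and PSME2, while PSMG3 fell. Calls over all 12263 genes grew too, to 2874 higher and 2432 lower, from 2018 and 1918 with all 6 libraries.

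**Figure D1:**
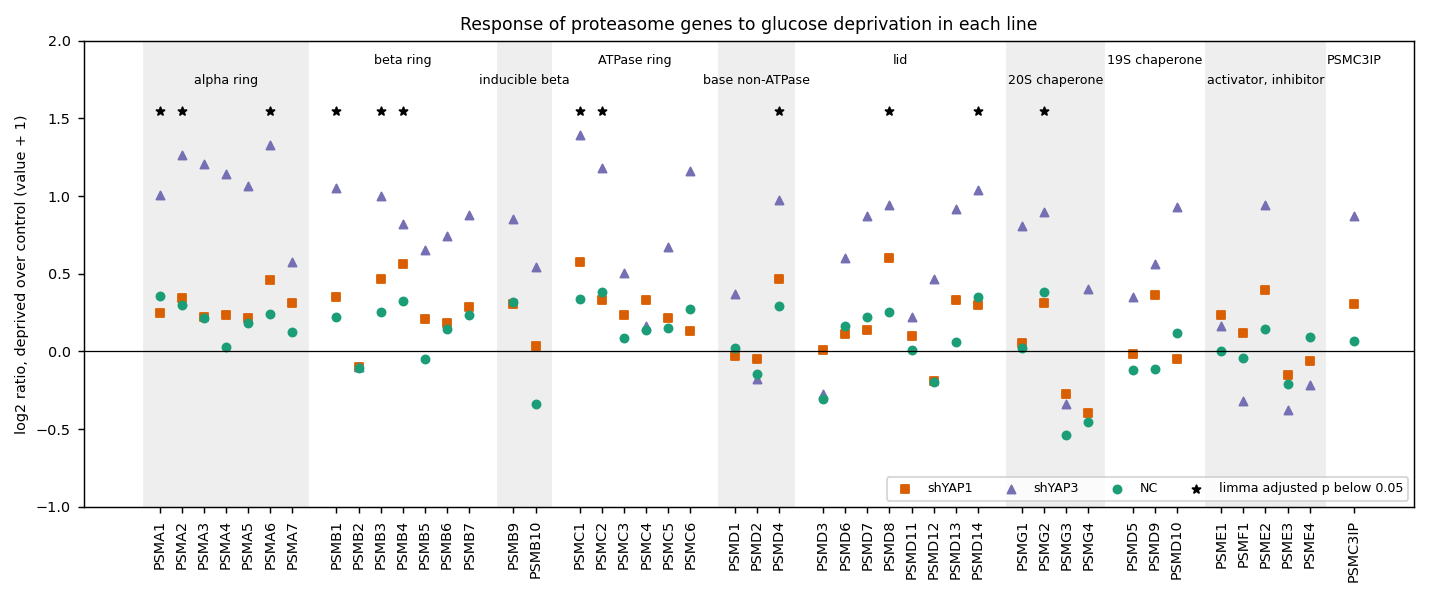
Log2 ratio of the value after deprivation to that in control medium (value + 1) for each of the 46 tested proteasome genes, grouped by role, with squares for shYAP1, triangles for shYAP3 and circles for NC cells. Stars mark the 12 genes with a limma adjusted p below 0.05, and the triangle is the highest point for 37 of the 46 genes.

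Limits of scaling and of library number touch every direction given here. The direction rests on the authors' scaling, under which the values of a library sum to more after deprivation. As a share of listed reads, the 47 genes took 0.708% in shYAP1, 0.847% in shYAP3 and 0.638% in NC cells after deprivation, against 0.720% in shYAP1, 0.717% in shYAP3 and 0.681% in NC cells in control medium. By that share 20 of the 46 tested genes were higher after deprivation in shYAP1, 32 in shYAP3 and 17 in NC cells. The median log2 ratios were −0.02, 0.34 and −0.07 in those lines. This change of scale moves every gene of a line down alike, and the same counts over all genes were not made by line. Scaled to listed reads, the median of all genes moved to −0.24 and that of the 46 to 0.05. None of the 46 rose, and PSMB2, PSMD2, PSMD3, PSME3 and PSMG3 fell. Over all 12263 genes 749 were higher and 3802 lower on that scale. The distance between the medians was then 0.28, against 0.31 as reported. The second limit is the number of libraries. Without the shYAP1 control or the shYAP3 control library none of the 46 passed, with lowest limma adjusted p-values of 0.0997 and 0.116 among the 12. Without the NC control or the NC deprived library PSMB4, PSMC1 and PSMD8 did. Leaving out either NC library gives the same fold changes, which then come from the shYAP libraries alone.

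All 7 genes of the alpha ring, which gates the core, had a positive fold change, with a median of 0.54 on the log2 scale, and 3 rose. PSMA6 (ENSG00000100902) stood at 190.2 in shYAP1, 315 in shYAP3 and 145 in NC cells after deprivation, against 138 in shYAP1, 125 in shYAP3 and 122 in NC cells in control medium. All 3 deprived libraries lay above the control libraries, the shYAP3 library furthest (log2 fold change 0.68, SE 0.21, limma adjusted p = 0.038). PSMA1 stood at 224 in shYAP1, 341 in shYAP3 and 208 in NC cells after deprivation, against 188 in shYAP1, 169 in shYAP3 and 162 in NC cells in control medium, again without overlap (log2 fold change 0.54, SE 0.18, limma adjusted p = 0.044). PSMA2, PSMA3, PSMA4, PSMA5 and PSMA7 had log2 fold changes of 0.63, 0.55, 0.47, 0.49 and 0.34, and of these PSMA2 passed. The sum of the 7 values was 1542 in shYAP1, 2434 in shYAP3 and 1279 in NC cells after deprivation, against 1262 in shYAP1, 1167 in shYAP3 and 1116 in NC cells in control medium. Neither PSMA6 nor PSMA1 passed with trends of transcript length and GC content removed, where the log2 fold change of PSMA6 was 0.30 (adjusted p = 0.082).

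In the beta ring 6 of 7 genes had a positive fold change, with a median of 0.47, and 3 rose. PSMB4 (ENSG00000159377), a structural subunit, stood at 289 in shYAP1, 328 in shYAP3 and 232 in NC cells after deprivation, against 195 in shYAP1, 185 in shYAP3 and 185 in NC cells in control medium. Its deprived values all exceeded its control values (log2 fold change 0.57, SE 0.14, limma adjusted p = 0.017), and it had the smallest p of all proteasome genes. PSMB3, also without a protease site, stood at 197 in shYAP1, 255 in shYAP3 and 148 in NC cells after deprivation, against 142 in shYAP1, 127 in shYAP3 and 124 in NC cells in control medium (log2 fold change 0.57, SE 0.16, limma adjusted p = 0.027). PSMB1 passed, with 0.54 on the log2 scale, but not in edgeR (adjusted p = 0.054) or with trends of length and GC content removed (0.25, adjusted p = 0.099). PSMB7 passed only with the line as a replicate block or with a shYAP deprived library left out (adjusted p = 0.046 with the block, against 0.051). PSMB2 was the only gene of the ring with a negative value, standing at 166 in shYAP1, 156 in shYAP3 and 157 in NC cells after deprivation, against 178 in shYAP1, 167 in shYAP3 and 169 in NC cells in control medium (log2 fold change −0.10, SE 0.13, limma adjusted p = 0.55).

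The catalytic subunits of the core did not pass. PSMB5, the chymotrypsin-like protease, stood at 214 in shYAP1, 288 in shYAP3 and 158 in NC cells after deprivation, against 185 in shYAP1, 183 in shYAP3 and 163 in NC cells in control medium. It was lower after deprivation in NC cells and higher in both shYAP lines (log2 fold change 0.27, SE 0.17, limma adjusted p = 0.23). PSMB6, the caspase-like protease, stood at 128 in shYAP1, 186 in shYAP3 and 114 in NC cells after deprivation, against 113 in shYAP1, 110.2 in shYAP3 and 103 in NC cells in control medium (log2 fold change 0.36, SE 0.17, limma adjusted p = 0.12). PSMB7, the trypsin-like protease, stood at 217 in shYAP1, 290.1 in shYAP3 and 177 in NC cells after deprivation, against 177 in shYAP1, 157 in shYAP3 and 150.0 in NC cells in control medium (log2 fold change 0.47, SE 0.16, limma adjusted p = 0.051). PSMB6 did not overlap between media, while for PSMB7 the NC deprived library lay just below the shYAP1 control library.

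Interferon replaces these 3 proteases by the inducible PSMB8, PSMB9 and PSMB10, and in HCT116 cells the inducible transcripts were scarce. PSMB8 was covered by 3 reads in shYAP1, 5 in shYAP3 and 7 in NC cells after deprivation, against 14 in shYAP1, 6 in shYAP3 and 6 in NC cells in control medium. Per kilobase of transcript, PSMB8 stood at 0.0940% to 0.354% of PSMB5 over the 6 libraries. PSMB9 stood at 2.23% to 2.93% of PSMB6 and PSMB10 at 5.88% to 9.94% of PSMB7 on the same scale. The deposited value of PSMB9 was 3.19 in shYAP1, 4.99 in shYAP3 and 2.87 in NC cells after deprivation, against 2.39 in shYAP1, 2.32 in shYAP3 and 2.11 in NC cells in control medium. These did not overlap, but PSMB9 did not pass (log2 fold change 0.49, SE 0.18, limma adjusted p = 0.065). It did with quantile normalization (limma adjusted p = 0.041), with the line as a replicate block (0.045) and without the shYAP1 deprived library. PSMB10 stood at 15.9 in shYAP1, 24.5 in shYAP3 and 14.5 in NC cells after deprivation, against 15.4 in shYAP1, 16.5 in shYAP3 and 18.5 in NC cells in control medium, with media that overlapped (log2 fold change 0.08, SE 0.20, limma adjusted p = 0.77).

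**Figure D2:**
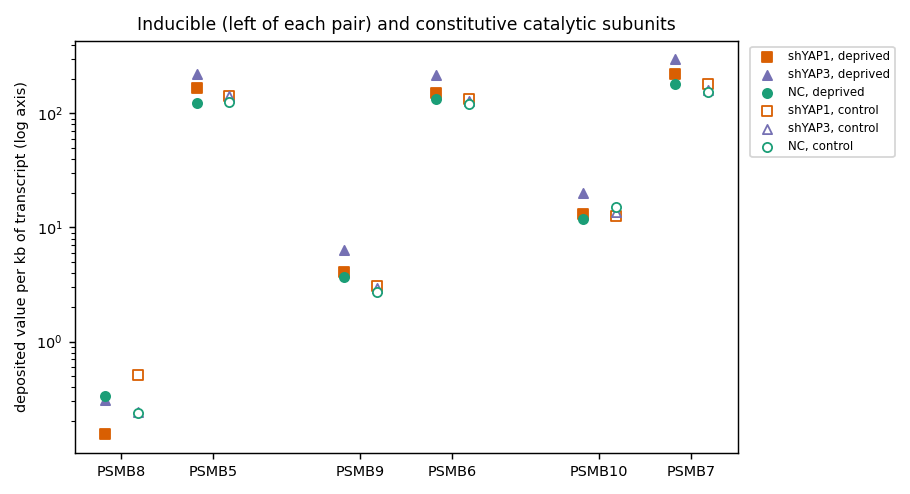
Deposited value per kilobase of annotated transcript, on a log axis, for the inducible subunits PSMB8, PSMB9 and PSMB10 and the constitutive subunits PSMB5, PSMB6 and PSMB7 that they replace, with filled symbols for deprived and open symbols for control libraries of shYAP1 (squares), shYAP3 (triangles) and NC (circles). In every library the inducible gene lies below its partner, PSMB8 at no more than 0.354% of PSMB5.

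All 6 genes of the ATPase ring had a positive fold change, with a median of 0.43, and 2 rose. PSMC1 (ENSG00000100764) stood at 297 in shYAP1, 479.8 in shYAP3 and 222 in NC cells after deprivation, against 199 in shYAP1, 182 in shYAP3 and 176 in NC cells in control medium, the largest fold change of all proteasome genes (log2 fold change 0.77, SE 0.21, limma adjusted p = 0.023). GENCODE lists 13 pseudogenes named after PSMC1, more than for any other member, and reads shared with them cannot be told apart here. PSMC2 stood at 156 in shYAP1, 236 in shYAP3 and 137 in NC cells after deprivation, against 124 in shYAP1, 104 in shYAP3 and 105 in NC cells in control medium (log2 fold change 0.63, SE 0.18, limma adjusted p = 0.03). It did not pass with trends of length and GC content removed (adjusted p = 0.076). PSMC3, PSMC4, PSMC5 and PSMC6 had log2 fold changes of 0.28, 0.21, 0.35 and 0.52 and did not pass, although only for PSMC6 did the media overlap.

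The other 3 subunits of the base had fold changes of both signs. PSMD4, a receptor for ubiquitin chains, stood at 237 in shYAP1, 320.0 in shYAP3 and 208 in NC cells after deprivation, against 171 in shYAP1, 163 in shYAP3 and 169 in NC cells in control medium and rose (log2 fold change 0.58, SE 0.16, limma adjusted p = 0.027). PSMD2, a scaffold that docks shuttle factors, stood at 394 in shYAP1, 350.3 in shYAP3 and 383 in NC cells after deprivation, against 408 in shYAP1, 397 in shYAP3 and 423 in NC cells in control medium. Its deprived libraries all lay below its control libraries, by less than the test could call (log2 fold change −0.12, SE 0.13, limma adjusted p = 0.49). PSMD1, the other large scaffold, had a log2 fold change of 0.12.

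Of the 8 lid genes 7 had a positive fold change, with a median of 0.35, and 2 rose. PSMD8 stood at 229.7 in shYAP1, 282 in shYAP3 and 170.1 in NC cells after deprivation, against 151 in shYAP1, 147 in shYAP3 and 142 in NC cells in control medium, without overlap (log2 fold change 0.60, SE 0.16, limma adjusted p = 0.021). PSMD14, the enzyme that cuts ubiquitin off the substrate, stood at 249 in shYAP1, 360.3 in shYAP3 and 214 in NC cells after deprivation, against 202 in shYAP1, 175 in shYAP3 and 167 in NC cells in control medium (log2 fold change 0.56, SE 0.17, limma adjusted p = 0.035). PSMD7 (0.41), the inactive partner of PSMD14, and PSMD13 (0.44), PSMD6 (0.29), PSMD11 (0.11), PSMD12 (0.03) and PSMD3 (−0.19) did not pass.

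**Figure D3:**
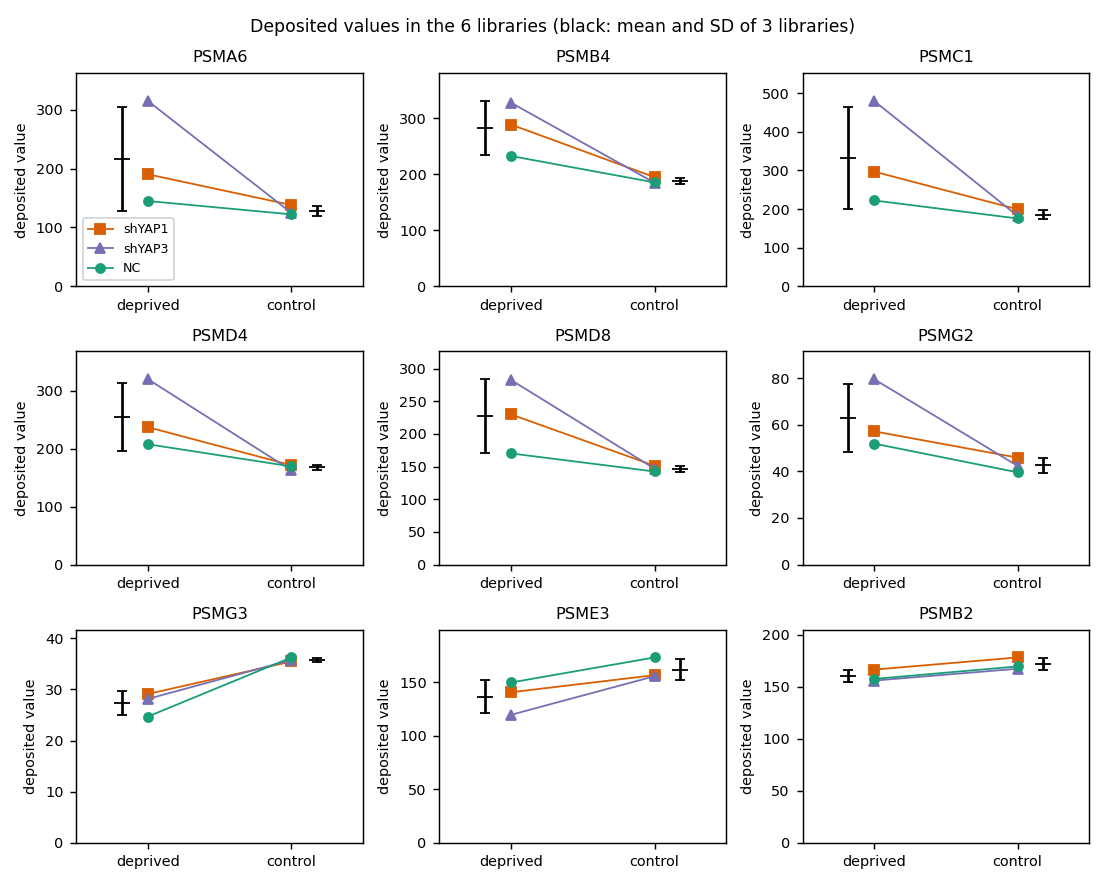
Deposited values of 9 proteasome genes in the 6 libraries, deprived at left and control at right, joined by line (squares shYAP1, triangles shYAP3, circles NC), with the mean and SD of the 3 libraries of each medium in black. PSMA6, PSMB4, PSMC1, PSMD4, PSMD8 and PSMG2 lie higher after deprivation in every line, and PSMG3, PSME3 and PSMB2 lower.

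Among the chaperones that assemble the particle, the core chaperones PSMG2 and PSMG3 lay in opposite directions. PSMG2, which pairs with PSMG1, stood at 57.2 in shYAP1, 79.5 in shYAP3 and 51.9 in NC cells after deprivation, against 45.8 in shYAP1, 42.3 in shYAP3 and 39.5 in NC cells in control medium and rose (log2 fold change 0.53, SE 0.16, limma adjusted p = 0.032). PSMG3, which pairs with PSMG4, stood at 29.1 in shYAP1, 28.1 in shYAP3 and 24.7 in NC cells after deprivation, against 35.5 in shYAP1, 35.8 in shYAP3 and 36.2 in NC cells in control medium. Every deprived library was below every control library, with the largest decrease among the 46, and it just missed the threshold (log2 fold change −0.38, SE 0.13, limma adjusted p = 0.053). PSMG3 passed, lower, in edgeR on the recovered reads (log2 fold change −0.42, adjusted p = 0.041). PSMG1 (0.30) and PSMG4 (−0.15) had the sign of their partners and did not pass.

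The chaperones of the regulatory particle did not pass. PSMD9 stood at 45.7 in shYAP1, 53.6 in shYAP3 and 35.9 in NC cells after deprivation, against 35.4 in shYAP1, 36.0 in shYAP3 and 38.8 in NC cells in control medium (log2 fold change 0.27, SE 0.16, limma adjusted p = 0.21). PSMD10, also known as gankyrin, stood at 55.1 in shYAP1, 99.6 in shYAP3 and 53.7 in NC cells after deprivation, against 57.1 in shYAP1, 51.9 in shYAP3 and 49.4 in NC cells in control medium (log2 fold change 0.33, SE 0.21, limma adjusted p = 0.25). PSMD5 had a log2 fold change of 0.07. All 3 were lower after deprivation in at least 1 line.

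Of the 5 activators and inhibitors 3 had negative fold changes, with a median of −0.06, and none passed. PSME2, which with PSME1 forms an activator that opens the core without ATP, stood at 62.8 in shYAP1, 96.4 in shYAP3 and 53.9 in NC cells after deprivation, against 47.4 in shYAP1, 49.6 in shYAP3 and 48.6 in NC cells in control medium. It was higher in every deprived library (log2 fold change 0.50, SE 0.19, limma adjusted p = 0.07), and passed with the line as a replicate block (adjusted p = 0.041). PSME1 had a log2 fold change of 0.14. PSME3, the nuclear activator, stood at 141 in shYAP1, 119.7 in shYAP3 and 149.9 in NC cells after deprivation, against 157 in shYAP1, 156 in shYAP3 and 173 in NC cells in control medium, lower in every deprived library than in every control library (log2 fold change −0.25, SE 0.13, limma adjusted p = 0.17). PSME4, an activator linked to histone turnover, stood at 116 in shYAP1, 91.1 in shYAP3 and 116 in NC cells after deprivation, against 121 in shYAP1, 106 in shYAP3 and 108 in NC cells in control medium (log2 fold change −0.06, SE 0.15, limma adjusted p = 0.77). PSMF1, an inhibitor of the core in vitro, stood at 85.0 in shYAP1, 61.4 in shYAP3 and 82.4 in NC cells after deprivation, against 78.3 in shYAP1, 77.0 in shYAP3 and 84.9 in NC cells in control medium (log2 fold change −0.08, SE 0.15, limma adjusted p = 0.69). PSMC3IP, the recombination cofactor, stood at 24.2 in shYAP1, 31.1 in shYAP3 and 18.7 in NC cells after deprivation, against 19.4 in shYAP1, 16.5 in shYAP3 and 17.8 in NC cells in control medium (log2 fold change 0.41, SE 0.17, limma adjusted p = 0.092).

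Members with shorter transcripts had the larger median response, though length and log2 ratio were only weakly correlated. The Spearman correlation over the 46 was −0.23 in shYAP1, −0.11 in shYAP3 and −0.16 in NC cells. Over all genes tested the correlation was −0.32, −0.38 and −0.10 in those lines. The median annotated length was 1579 bases for proteasome genes and 3113 for all genes tested. For the 29 tested members under 2000 bases the median log2 ratio was 0.29 in shYAP1, 0.87 in shYAP3 and 0.15 in NC cells, and for the 17 longer ones 0.10 in shYAP1, 0.47 in shYAP3 and 0.02 in NC cells. Over all genes under 2000 bases it was 0.23 in shYAP1, 0.44 in shYAP3 and 0.09 in NC cells, and over longer ones −0.03, −0.09 and −0.003. With trends of length and GC content removed in each library, the median over the 46 was 0.21, against 0.04 over all genes. Then 10 of the 46 rose, 8 of the 12 with PSMD13 and PSME2, and PSME3 and PSMG3 fell. Over all 12214 genes in that fit 2447 were higher and 2058 lower. Of the 47 genes 15 overlap another listed gene, 11 of them on the opposite strand (PSMC1 with NRDE2 is one), and as no strand setting is given, such reads cannot be told apart.

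**Figure D4:**
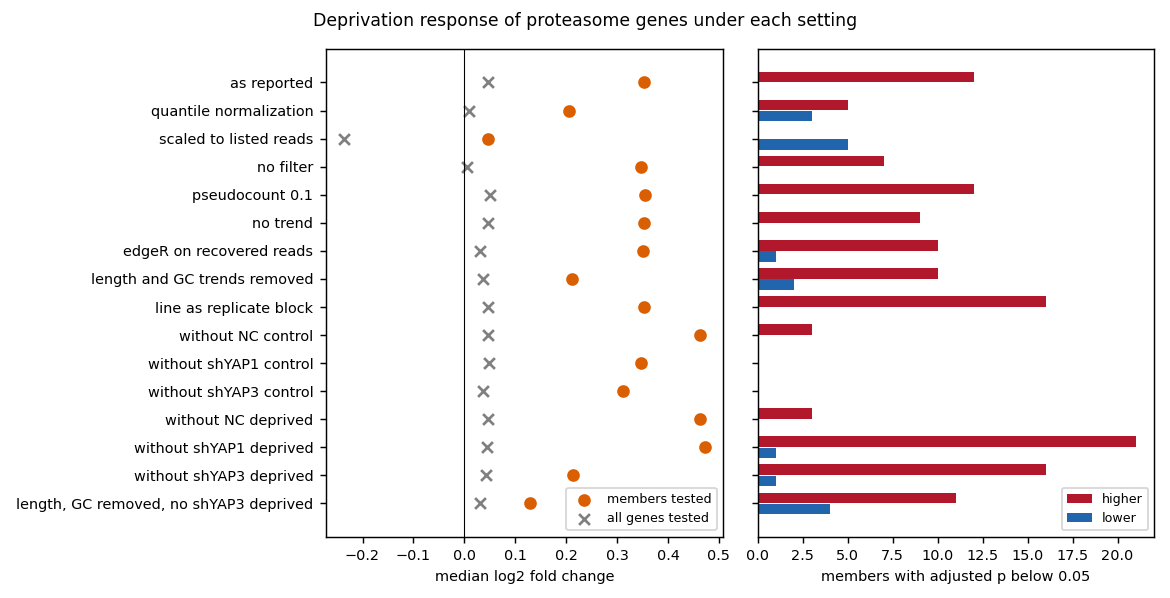
Left, median log2 fold change of the deprivation response over proteasome genes (circles) and over all genes tested (crosses) under each setting; right, the number of proteasome genes with an adjusted p below 0.05, higher in red and lower in blue. The circle lies right of the cross in every setting, while the number of genes that rose runs from 0 to 21. Dropping the trend or using the replicate block leaves both medians as reported by construction. The distance is 0.31 as reported and 0.17 with length and GC trends removed. It is 0.098 with the shYAP3 deprived library left out as well.

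YAP knockdown was not seen to change any proteasome gene. Over both media 40 of the 46 genes had a positive log2 fold change of shYAP over NC, with a median of 0.26, and none passed limma (1 had an unadjusted p below 0.05, and edgeR called none). The median was 0.07, with 30 positive, without the NC deprived library, 0.12 without the shYAP3 deprived library and 0.43 without the NC control library. With trends of length and GC content removed it was 0.13, with 40 positive. Over all genes the shares called were 0% higher and 0.00815% lower. PSMB5, the gene with the smallest p, was higher in shYAP cells by 0.41 on the log2 scale, with an SE of 0.18 and an adjusted p of 0.58 in limma. In control medium the median log2 ratio to NC was 0.13 in shYAP1 and 0.02 in shYAP3 cells, with 35 and 24 of the 46 genes above NC. After deprivation it was 0.19 in shYAP1 and 0.70 in shYAP3 cells, with 44 and 38 above NC. Over all genes tested 49.6% in shYAP1 and 41.5% in shYAP3 cells lay above NC in control medium. After deprivation these shares were 50.7% and 48.7%.

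The response was not shown to differ between shYAP and NC cells. The difference of the response, shYAP minus NC, was positive for 43 of the 46 genes, with a median of 0.33 and a range of −0.23 to 0.66, and none passed limma or edgeR (0 had an unadjusted p below 0.05 in limma). No gene of the whole table passed, 0% in either direction. PSMD9, with the smallest p, had a difference of 0.57 (SE 0.31, limma adjusted p = 1). Without the shYAP1 deprived library the median was 0.58, and that fit rests on the shYAP3 deprived library against NC. Without the shYAP3 deprived library the median was 0.14. Both fits leave 1 shYAP library after deprivation, so no conclusion is drawn from their calls. The response was larger in shYAP1 than in NC cells for 35 of the 46 genes, and the share over all genes was not counted. With trends of length and GC content removed in all 6 libraries, the median difference was 0.15, with 38 positive.

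Of 36 other genes of the ubiquitin and proteasome pathway, all tested, 12 rose and 4 fell, against 16.5% and 15.6% of all genes. Scaled to listed reads 6 of the 36 rose and 7 fell, against 749 and 3802 of all 12263 genes. With 1 library left out 4 to 20 rose and 1 to 5 fell, against 473 to 2874 and 587 to 2432 of all genes. ZFAND2A, an arsenite-inducible protein that binds the proteasome, stood at 50.5 in shYAP1, 55.0 in shYAP3 and 37.7 in NC cells after deprivation, against 9.98 in shYAP1, 10.3 in shYAP3 and 10.6 in NC cells in control medium, 4.27-fold higher (log2 fold change 2.09, SE 0.16, limma adjusted p = 0.00011). MAFF, a small partner of NFE2L1 and NFE2L2, stood at 54.2 in shYAP1, 40.9 in shYAP3 and 68.7 in NC cells after deprivation, against 12.8 in shYAP1, 11.1 in shYAP3 and 10.2 in NC cells in control medium (log2 fold change 2.14, SE 0.19, limma adjusted p = 0.00027). UBB, a polyubiquitin gene, rose (log2 fold change 0.67, limma adjusted p = 0.013), though not with quantile normalization (adjusted p = 0.81). RPS27A (0.98), which fuses ubiquitin to a ribosomal protein, also rose, though not with quantile normalization. Neither passed without the shYAP1 or the shYAP3 control library, and reads can be split between genes that hold the ubiquitin sequence.

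**Figure D5:**
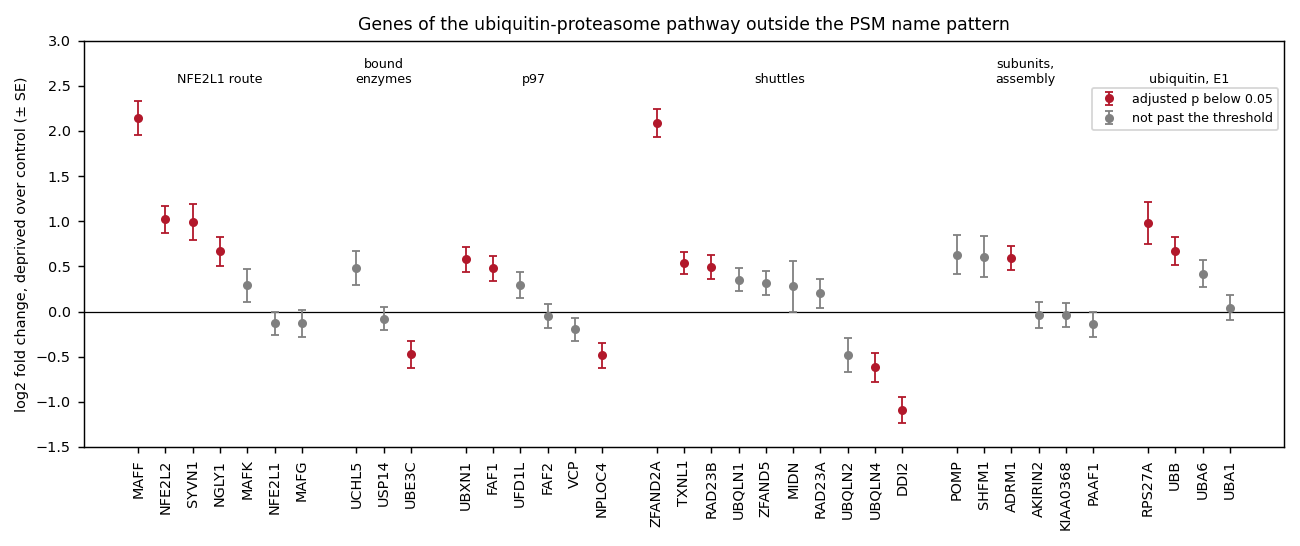
Log2 fold change of deprived over control with its SE for 36 pathway genes outside the PSM names, grouped by role; red points have a limma adjusted p below 0.05. ZFAND2A and MAFF lie highest at 2.09 and 2.14, and DDI2 lowest at −1.09.

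On the route by which NFE2L1 reaches proteasome genes, the members differed. NFE2L1 itself stood at 188 in shYAP1, 177 in shYAP3 and 215 in NC cells after deprivation, against 213 in shYAP1, 200.2 in shYAP3 and 220.0 in NC cells in control medium (log2 fold change −0.13, SE 0.13, limma adjusted p = 0.45). DDI2, the protease that cuts it, stood at 37.4 in shYAP1, 31.1 in shYAP3 and 47.0 in NC cells after deprivation, against 76.1 in shYAP1, 83.9 in shYAP3 and 86.9 in NC cells in control medium and fell (log2 fold change −1.09, SE 0.14, limma adjusted p = 0.0017). NGLY1, which removes its sugars, rose (log2 fold change 0.67), as did SYVN1 (0.99), a ligase of the endoplasmic reticulum that acts on NFE2L1. Neither passed without an NC library, and NGLY1 did not pass scaled to listed reads (adjusted p = 0.079) or without the shYAP1 or the shYAP3 control library (0.074 and 0.097). NFE2L2, the related oxidative stress factor, stood at 146 in shYAP1, 174 in shYAP3 and 186 in NC cells after deprivation, against 89.3 in shYAP1, 84.6 in shYAP3 and 73.1 in NC cells in control medium and rose (log2 fold change 1.02, SE 0.15, limma adjusted p = 0.0024). ZFAND2A, MAFF, NFE2L2 and DDI2 passed with the same sign in all 15 alternative settings, of which those without an NC library share the same fold changes.

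The other pathway genes that fell were UBQLN4, NPLOC4 and UBE3C, and none of these passed when an NC or a control library was left out. UBQLN4, a shuttle factor, stood at 77.2 in shYAP1, 54.0 in shYAP3 and 79.3 in NC cells after deprivation, against 106 in shYAP1, 102 in shYAP3 and 113 in NC cells in control medium (log2 fold change −0.62, SE 0.16, limma adjusted p = 0.019). NPLOC4, a cofactor of the segregase VCP, stood at 156 in shYAP1, 123 in shYAP3 and 147 in NC cells after deprivation, against 195 in shYAP1, 193 in shYAP3 and 207 in NC cells in control medium (log2 fold change −0.49, SE 0.14, limma adjusted p = 0.028). For both, every deprived library lay below every control library, and NPLOC4 did not pass with trends of length and GC content removed (log2 fold change −0.22, adjusted p = 0.1). UBE3C, a ligase on the proteasome, had a log2 fold change of −0.47. ADRM1, a ubiquitin receptor of the base, rose (log2 fold change 0.59, SE 0.13, limma adjusted p = 0.012), but not scaled to listed reads or without the shYAP1 or the shYAP3 control library. POMP, the chaperone that matures the beta ring, stood at 156 in shYAP1, 267 in shYAP3 and 112 in NC cells after deprivation, against 115 in shYAP1, 111 in shYAP3 and 96.9 in NC cells in control medium and did not pass (log2 fold change 0.63, SE 0.22, limma adjusted p = 0.051). SHFM1 (0.61), the smallest lid subunit, now SEM1, did not pass either.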

How the data were processed

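Gene expression was measured by RNA sequencing in 6 libraries of HCT116 cells: shYAP1, shYAP3 and NC cells, each after 6 h of glucose deprivation and in control medium. Per the labels' protocols, mRNA was taken with oligo-dT beads and fragmented. Bowtie2, BWA and hg19 are named, with no role or version, per the submitters' processing notes; the counter, annotation, strand setting and scaling are not given in the sources used here. The table deposited by the authors holds normalized signal. Divided by what 1 read is worth in its library, 100% of values came out whole (within 0.01 of a read), and reads were recovered in this way.

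The 12263 genes that reached a value of 1 in 2 or more libraries were tested, 46 of them members. Normalized values are not counts, so the main test was limma trend (version 3.58.1, under R 4.3.3) applied to log2(value + 1). The response and knockdown came from genotype + medium, the difference of the response from genotype by medium. P-values were adjusted over all genes by Benjamini-Hochberg and called at 0.05. The pseudocount makes fold changes of low genes too small. edgeR (version 4.0.16) on the recovered reads was an alternative and called 1856 genes higher and 1992 lower in the response, against 2018 and 1918 in limma. Both were tested on simulated data.

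Other alternatives were quantile normalization, scaling to listed reads, no filter, a pseudocount of 0.1, no trend, removal of length and GC trends, the line as a replicate block and leaving out each library; the joint removal of these trends and the shYAP3 deprived library was added after seeing the data. Each line gave both media, so the line pairs the libraries. Deviations from the medium mean correlated at 0.01 in shYAP1, 0.33 in shYAP3 and 0.46 in NC cells. Transcript lengths and GC content came from GENCODE release 29 (GRCh38), by identifier for 14686 genes and by symbol for the others, 14881 (99.3%) in all, with 1 principal transcript per gene, whether or not HCT116 cells use it.

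Members were those that match the symbol rule; values in each library are given for the 2 of each class with the smallest p in the response, for the catalytic, regulatory and inducible subunits, and of the pathway for the 3 called genes with the smallest p in each direction and a few fixed ones. Members and lists were chosen with earlier results of these data known. Some genes of the pathway are not reported here.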

Additional observations from a re-analysis of the deposited data

How the results depend on the processing

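The number of proteasome genes that rose after deprivation, 12 as reported, was 5 with quantile normalization, 0 scaled to listed reads and 7 without a filter, and ran from 0 to 21 when 1 library was left out. With quantile normalization the 5 were PSMC1, PSMC2, PSMD8 and PSMG2 of the 12, and PSMB9. The number that fell, 0 as reported, was 3 with quantile normalization, 5 scaled to listed reads and 1 in edgeR. It was 2 with trends of length and GC content removed, and 4 with the shYAP3 deprived library left out as well. When 1 library was left out it was 0 to 1. Over all 12263 genes 2018 rose and 1918 fell as reported, 1820 and 2161 with quantile normalization, and 749 and 3802 scaled to listed reads. Without a filter 1628 and 1754 of 14987 genes did. With trends of length and GC content removed 2447 and 2058 of 12214 did, and 2825 and 2370 without the shYAP3 deprived library as well. When 1 library was left out 473 to 2874 of all genes rose and 587 to 2432 fell. With the line as a replicate block 16 proteasome genes rose, the 12 and PSMA3, PSMB7, PSMB9 and PSME2, against 2324 of all 12263 genes. The block changed no other call of a member. PSMD12 changed sign with length and GC trends removed and without the shYAP3 deprived library (log2 fold change −0.30, adjusted p = 0.023, against 0.03). No member passed the knockdown under any setting run for it; the replicate block was run for the response only. In the difference of the response 0 to 27 passed, higher, when 1 library was left out, and 0 under every other setting run for it; without an NC library it could not be fitted. The highest of these counts came from the fit without the shYAP1 deprived library. It leaves 1 shYAP library after deprivation, the shYAP3 library that stood apart, so no conclusion is drawn from that count. Genes over the whole table were called in that fit too, in both directions. Its median difference was 0.58 over the 46 genes and −0.002 over all genes. Scaling shifts every gene of a library alike, so the shift of the median is set by construction. For the other changes of setting the cause was not tested. The design has 1 NC library per medium, and a value at the floor of 3 reads (0.122 to 0.208) cannot be compared, which limits PSMB8.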
